A study of Mus musculus with 8 samples.

Results

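The genes that form or face the integrin VLA-4 were examined in RAW264.7, a macrophage-like line of the mouse. They were the 9 rows of the deposited count table, of 22013 in all, whose symbols are Itga4, Itgb1, Itgb7, Itga9, Vcam1, Fn1, Spp1, Thbs1 and Madcam1. The cells received recombinant FSTL1 (rFSTL1), a secreted glycoprotein that the study examined as a binding partner of integrin α4, at 100 ng/mL for 24 h, or PBS. Each group had 4 polyA RNA libraries of this line, and the labels name no other agent. No label says that the libraries of a group came from separate cultures, and p-values therefore measure the spread between these libraries, which may be technical. The groups are a model of 1 continuous line in culture and not of liver macrophages. The comparison asked how much of each subunit and ligand transcript the cells carried, whether the ratio of α4 to its β partners differed under rFSTL1, and whether the cells carried transcripts of α4 ligands themselves.

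Integrins are cell surface receptors made of 1 α and 1 β subunit, and a subunit reaches the surface only as part of such a pair. Itga4 encodes α4, which pairs with β1 (Itgb1) to form VLA-4 and with β7 (Itgb7) to form the gut homing receptor. VLA-4 carries leukocytes onto inflamed endothelium by binding VCAM-1 (Vcam1), and it also binds fibronectin (Fn1), osteopontin (Spp1) and thrombospondin 1 (Thbs1). MAdCAM-1 (Madcam1), an adhesion molecule of mucosal venules, is the main ligand of the α4 β7 pair. Itga9 encodes α9, the closest relative of α4, which pairs with β1 and shares several of these ligands.

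The short stretches that α4 integrins are known to recognise differ between ligands, and the coding sequence is given for Spp1, Vcam1, Fn1 and Madcam1, with none given for Thbs1, because the comparison asks which of them the cells transcribed. They were read 5′ to 3′ on the coding strand of GRCm38 with the GENCODE M21 transcripts. Capitals mark the codons named here. In osteopontin, capitals mark the Arg-Gly-Asp codons and those of the next 7 residues (exon 7 of 8, chr5:104439472-104439519, plus strand). Only the 7 residues after Arg-Gly-Asp are the stretch that thrombin cleavage exposes to α4 and α9 integrins. In VCAM-1 capitals mark Ile-Asp-Ser of an immunoglobulin domain (exon 2 of 9, chr3:116128666-116128698, minus strand). In fibronectin they mark Leu-Asp-Val of the alternatively spliced connecting segment (exon 40 of 46, chr1:71597674-71597706, minus strand), and in MAdCAM-1 Leu-Asp-Thr (exon 2 of 5, chr10:79665022-79665048, plus strand).
Spp1: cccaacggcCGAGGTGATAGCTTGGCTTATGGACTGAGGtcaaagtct
Vcam1: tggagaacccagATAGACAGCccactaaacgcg
Fn1: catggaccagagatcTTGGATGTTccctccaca
Madcam1: tggcgtggtCTGGACACCagcttgggc

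Library totals ran from 15183127 to 20234478 counts under PBS and from 15062039 to 19260970 under rFSTL1. Values are CPM, a count divided by its library's total, corrected by a normalization factor between 0.988 and 1.012 and put on a common scale. Levels of different genes were compared as CPM per kilobase of the longest annotated transcript. The macrophage label was checked with 10 markers, of which 9 passed the expression filter. The lysosomal glycoprotein gene Cd68 averaged 896 CPM under PBS and Csf1r, the receptor of the macrophage growth factor, 1255 CPM. Adgre1, which encodes the F4/80 antigen, averaged 3.43 CPM under PBS and 3.66 CPM under rFSTL1, and Mertk reached at most 2 counts in a library. By edgeR 0 of the 9 had an adjusted p under 0.05, beside 0.344% of all 10748 genes tested, and 2 an unadjusted p under 0.05, beside 15.9%. These were Ptprc, the leukocyte antigen CD45, with 345 ± 12.4 CPM and 315 ± 15.5 CPM, and Tyrobp, a signaling adaptor of myeloid receptors, with 254 ± 9.8 CPM and 276 ± 8.28 CPM (SD, n = 4 each, PBS first). DESeq2 called 0 of the markers, among 197 genes that it called in all. Limma voom called 1, Ptprc, as lower, among 454. The markers' summed counts were 65496 to 83972 per library under PBS and 63432 to 85090 under rFSTL1. The 8 endothelial markers summed to 46 to 57 counts per PBS library and 34 to 54 per rFSTL1 library, and the 8 lymphocyte markers to 0 to 4 and 2 to 7. Emcn and Cldn5 of the endothelial list and Cd3e, Cd3d, Ms4a1 and Ncr1 of the lymphocyte list were at 0 throughout.

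The 9 genes fell into an expressed group and a group at or near 0. Per kilobase, Spp1 stood highest in every library (1072 to 1303 CPM per kilobase). Itga4 followed (193 to 279), then Itgb1 (64.0 to 73.5) and Itgb7 (2.99 to 4.61), and these 4 ranges did not overlap. The gap between Spp1 and Itga4 rests on the length used. With the median length of each gene's transcripts, Spp1 spanned 1146 to 1393 and Itga4 814.5 to 1176 CPM per kilobase, which overlap, and with the longest coding sequence 1826 to 2219 and 608.8 to 878.9, which do not. Itgb1 and Itgb7 stayed below both at each length. By the longest transcript, among 21827 genes with an annotated length, Spp1 ranked 31 and Itga4 198 by mean CPM per kilobase, and 871 for Itgb1 and 8287 for Itgb7. The other 5 genes had 12 counts (Fn1), 2 counts (Itga9), 2 counts (Thbs1), 1 count (Madcam1) and 0 counts (Vcam1) summed over all 8 libraries, and they cannot be ordered beyond the spread between libraries. The 4 expressed genes were tested among 10748 genes that passed the filter, and the other 5 did not pass.

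**Figure D1:**
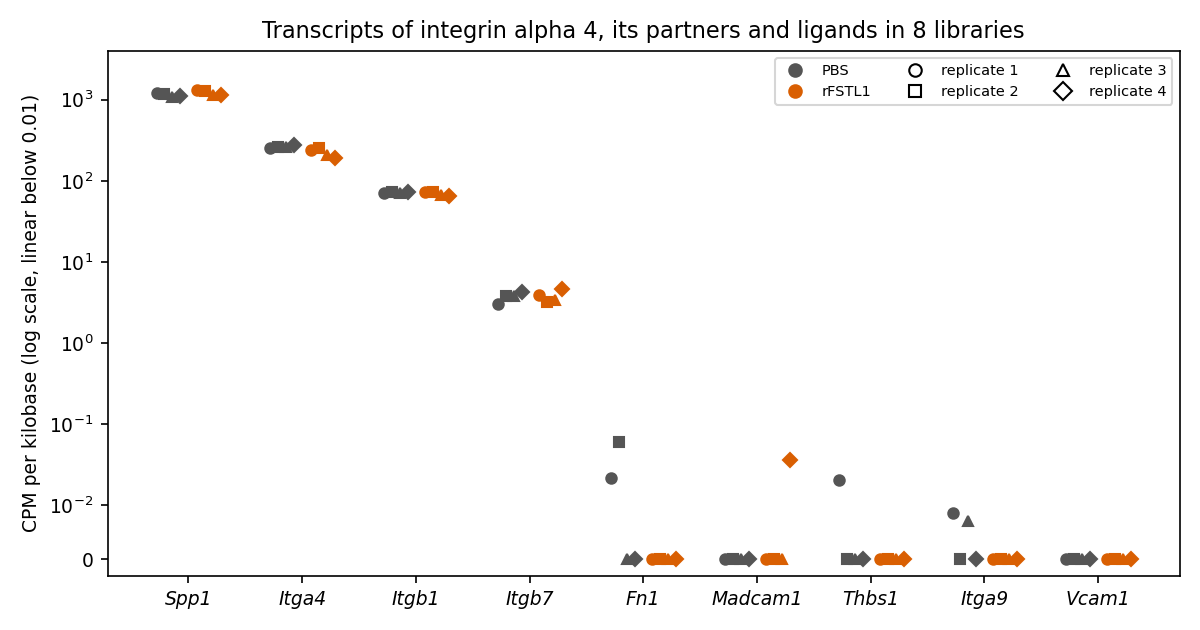
CPM per kilobase of the longest transcript (log scale, linear below 0.01) of the 9 genes in each of the 8 libraries, with color for the group and shape for the replicate number. Spp1, Itga4, Itgb1 and Itgb7 form 4 separate bands at this length in both groups, and the remaining 5 genes lie at or near 0.

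Itga4 (ENSMUSG00000027009, chr2:79255426-79333123 of GRCm38, plus strand) was among the genes with the most counts in these cells, at rank 26 by mean CPM. That rank is not corrected for transcript length, and per kilobase of the longest transcript Itga4 ranked 198. Its 250 bases before the annotated RefSeq start (chr2:79255176-79255425, GRCm38.p6) are shown beside those of Itgb1 (chr8:128685404-128685653) because these 2 genes encode the subunits of VLA-4, whose ratio is compared here. Capitals mark CG dinucleotides.
Itga4: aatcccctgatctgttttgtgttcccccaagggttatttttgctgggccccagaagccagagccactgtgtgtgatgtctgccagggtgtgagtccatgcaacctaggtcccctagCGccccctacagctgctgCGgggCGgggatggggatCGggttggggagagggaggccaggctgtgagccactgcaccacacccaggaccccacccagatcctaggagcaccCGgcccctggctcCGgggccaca
Itgb1: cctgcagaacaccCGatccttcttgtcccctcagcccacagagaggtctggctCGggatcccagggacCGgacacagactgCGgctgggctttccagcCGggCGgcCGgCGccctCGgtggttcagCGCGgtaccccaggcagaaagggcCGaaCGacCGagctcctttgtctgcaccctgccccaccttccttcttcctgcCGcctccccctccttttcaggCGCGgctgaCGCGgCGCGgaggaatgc
The Itga4 window holds 6 CG dinucleotides, equal to the median of 32851 promoters, and the Itgb1 window holds 21, more than 83.7% of them. Both windows hold 1 match to the GC box GGGCGG, letters found in 32.7% of promoters. The PU.1 letters GAGGAA match once before Itgb1 and not before Itga4 (23.3% of promoters), and neither window holds a match to the κB consensus (45.8%) or to TATAAA (12.4%). Both strands were searched, κB and GC box matches can share bases, and a match is a description of the letters, not a site.

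Itga4 was lower in every library under rFSTL1 than in any under PBS. It measured 2460, 2547, 2560 and 2721 CPM in PBS replicates 1 to 4 and 2324, 2445, 2031 and 1885 CPM in rFSTL1 replicates 1 to 4. The groups did not overlap, replicates 3 and 4 under rFSTL1 were the lowest, and rFSTL1 replicate 2 lay next to PBS replicate 1. The means (± SD, n = 4 each) were 2572 ± 109 CPM with PBS and 2171 ± 258 CPM with rFSTL1. The two-sided exact permutation p was 0.0286, the smallest that 70 assignments of the libraries allow, and 8.16% of all tested genes had groups that did not overlap. In edgeR's quasi-likelihood fit the log2 fold change was -0.24 (SE 0.07, 95% interval -0.38 to -0.11), with an adjusted p of 0.115 after Benjamini-Hochberg adjustment over all tested genes. None of the 4 tested members had an adjusted p under 0.05, where 0.344% of all tested genes did. Itga4 was the 1 member with an unadjusted edgeR p under 0.05, where 15.9% of all tested genes had one.

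The call on Itga4 depended on the fit. The edgeR adjusted p without rFSTL1 replicate 2 was 0.0253 at a log2 fold change of -0.31, DESeq2 gave 0.028 and limma voom with sample quality weights 0.0115, and over all alternatives the adjusted p ranged from 0.0115 to 0.367. With the dependence on transcript length and GC content taken out of each library, the log2 fold change was -0.15 with an adjusted p of 0.0636 (edgeR with Benjamini-Hochberg adjustment). Cerkl, on the opposite strand, shares 1124 exon bases (8.04% of Itga4's exon bases) and had 10 to 20 counts per library, beside 34786 to 51878 for Itga4. In RNA from whole cultures, fewer cells with a transcript and less of it per cell cannot be told apart.

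Neither β partner of α4 was called in the comparison of the groups. Itgb1 (ENSMUSG00000025809, chr8:128685654-128733200, plus strand) encodes the β subunit shared by VLA-4, VLA-5 and many matrix receptors. It measured 266.8, 280.5, 272.2 and 276.8 CPM in PBS replicates 1 to 4 and 276.7, 276.9, 256.1 and 244.3 CPM in rFSTL1 replicates 1 to 4. The groups overlapped, with rFSTL1 replicates 3 and 4 below all PBS libraries. Its log2 fold change was -0.06 (SE 0.05, 95% interval -0.16 to 0.04, edgeR adjusted p = 0.564), and -0.02 without rFSTL1 replicate 4. Itgb7 (ENSMUSG00000001281, chr15:102215995-102231944, minus strand), the leukocyte β subunit that pairs with α4 or αE, was far less abundant. It measured 8.02, 10.1, 10.2 and 11.3 CPM under PBS and 10.4, 8.50, 9.16 and 12.4 CPM under rFSTL1, from 132 to 241 counts per library. The groups overlapped almost fully. The log2 fold change of Itgb7 was 0.03 (SE 0.13, 95% interval -0.25 to 0.31, edgeR adjusted p = 0.925), and it was negative in 4 of the alternatives. Exact permutation p-values were 0.314 for Itgb1 and 0.886 for Itgb7.

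A ratio of 2 genes in the same library does not depend on the scaling of that library. Itga4 had 9.22, 9.08, 9.40 and 9.83 counts for each Itgb1 count in PBS replicates 1 to 4 and 8.40, 8.83, 7.93 and 7.72 in rFSTL1 replicates 1 to 4. All 4 ratios under rFSTL1 lay below all 4 under PBS. The mean log2 ratios (± SD, n = 4 each) were 3.23 ± 0.05 with PBS and 3.04 ± 0.09 with rFSTL1, a difference of -0.19 and a fold of 0.875 (two-sided exact permutation p = 0.0286, or 0.0571 with Benjamini-Hochberg adjustment over the 4 ratios tested). Of all tested genes, 6.89% had ratios to Itgb1 that did not overlap between the groups. With PBS replicates 3 and 4 alone in the control group the difference was -0.23 (exact permutation p = 0.133, the smallest that 2 against 4 libraries allow). With the dependence on length and GC content taken out it was -0.13 (exact permutation p = 0.0286). Both alternatives were chosen after seeing the data.

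Against both partners together the result was close to that against Itgb1, and Itgb7 adds little to the sum. Itga4 had 8.95, 8.76, 9.06 and 9.44 counts per count of Itgb1 plus Itgb7 under PBS and 8.10, 8.57, 7.66 and 7.34 under rFSTL1. The groups did not overlap, as was the case for 6.84% of all tested genes set against the same sum. The difference in mean log2 ratio was -0.20 (exact permutation p = 0.0286, or 0.0571 adjusted over the 4 ratios), and -0.13 (exact permutation p = 0.0571) with the dependence on length and GC content taken out. The other 2 ratios overlapped between the groups. Itga4 had 305.8, 250.8, 251.2 and 240.1 counts per Itgb7 count under PBS and 223.7, 286.7, 221.2 and 152.1 under rFSTL1, a log2 difference of -0.28 (exact permutation p = 0.286, adjusted 0.381). It was -0.11 without rFSTL1 replicate 4 and -0.41 without rFSTL1 replicate 2. Ratios to Itgb7 rest on at most 241 counts, and 0.4% of all tested genes had such ratios without overlap. Itgb7 had 0.030, 0.036, 0.037 and 0.041 counts per Itgb1 count under PBS and 0.038, 0.031, 0.036 and 0.051 under rFSTL1 (log2 difference 0.08, exact permutation p = 0.657, adjusted 0.657). This difference has no stable sign, at -0.002 without PBS replicate 1, -0.06 without rFSTL1 replicate 4, 0.145 without PBS replicate 4 and 0.185 without rFSTL1 replicate 2. Itgb1 was the more abundant β partner in all 8 libraries, by counts and per kilobase.

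**Figure D2:**
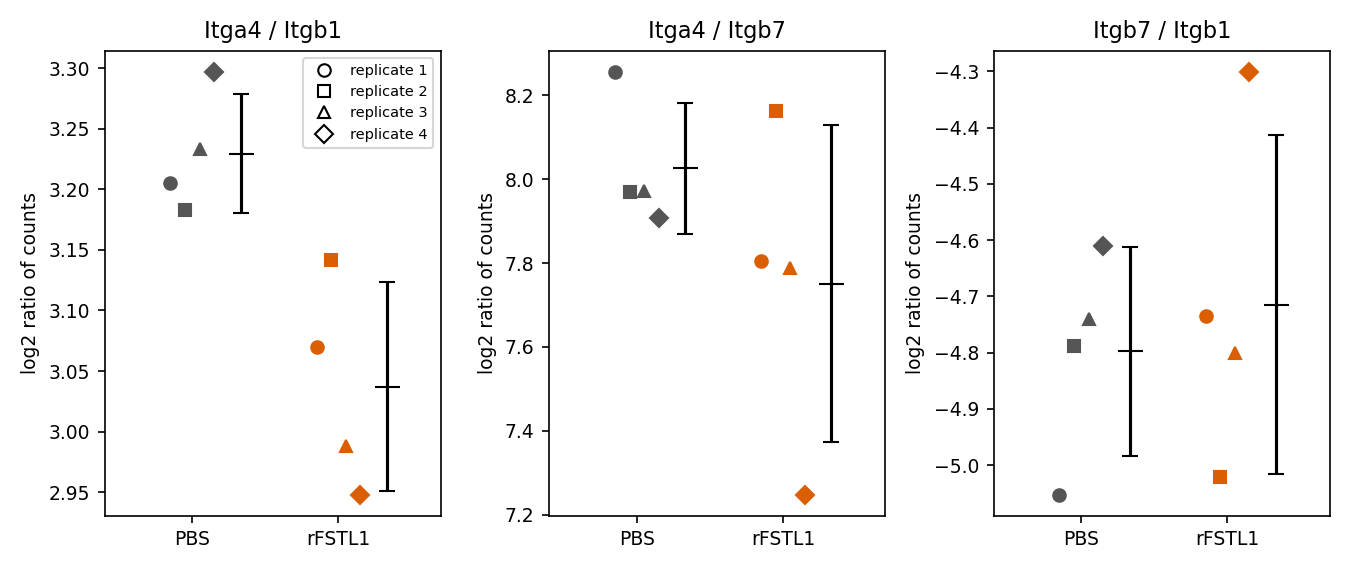
Log2 ratio of counts (pseudocount 0.5 on both genes) of Itga4 to Itgb1, Itga4 to Itgb7 and Itgb7 to Itgb1 in each library, with the group mean and SD as bars (n = 4). The Itga4 to Itgb1 ratios separate the groups, at 3.23 ± 0.05 and 3.04 ± 0.09, and the ratios with Itgb7 overlap.

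Per kilobase of the longest transcript, the level of Itga4 over that of Itgb1 was 3.67 ± 0.13 with PBS and 3.21 ± 0.19 with rFSTL1 (SD, n = 4 each). This ratio depends on the length used, and was 7.33 under PBS with the median length of each gene's transcripts and 7.26 with the longest coding sequence. The transcript forms that the cells used were not given in the counts. At each of these lengths the α4 transcript exceeded the β1 transcript in every library.

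Itga4 also exceeded all other α subunits together. Of the summed CPM per kilobase of the longest transcript of 18 α subunit genes, Itga4 took 79.6%, 80.4%, 80.0% and 81.7% in PBS replicates 1 to 4 and 77.8%, 79.9%, 76.3% and 74.2% in rFSTL1 replicates 1 to 4. The groups overlapped at 1 library, rFSTL1 replicate 2. Itgam, the α subunit of the complement receptor Mac-1, averaged 7.43% under PBS and 8.83% under rFSTL1, and Itga5, the α subunit of the fibronectin receptor VLA-5, 6.2% and 7.58%. Shares of 1 library add up to 100%, so a lower share of Itga4 raises the others by construction. The sum over the α subunits was 327 ± 10.3 CPM per kilobase with PBS and 288 ± 25.8 with rFSTL1 (SD, n = 4 each). Among 8 β subunit genes Itgb1 averaged 53.7% and 51.8% of the sum. Itgb2, the β subunit of the leukocyte integrins, averaged 36.0% and 38.5%, Itgb5 7.21% and 6.65%, and Itgb7 2.76% and 2.82%. The β sum averaged 133.7 and 133.5 CPM per kilobase, less than the α sum in each library.

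**Figure D3:**
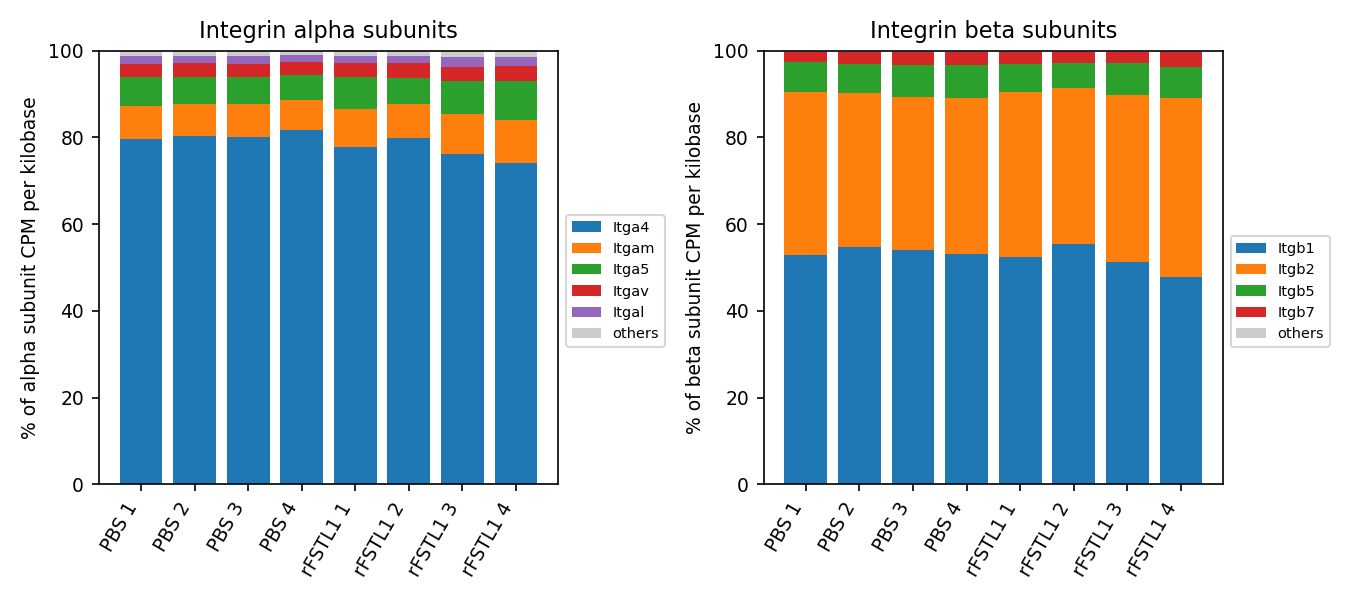
Share of each integrin α subunit (left, 18 genes) and β subunit (right, 8 genes) in the summed CPM per kilobase of its kind, in percent, for each library. Itga4 takes 74.2% to 81.7% of the α sum, and Itgb1 takes 47.8% to 55.5% of the β sum.

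Itga9, the relative of Itga4, was at the limit of detection, with 1 count in PBS replicate 1, 1 count in PBS replicate 3 and 0 in the other libraries. A count of 0 allows up to 3 counts, or 0.148 to 0.199 CPM depending on the library, and these limits cover counting error only. No ratio to Itga4 was computed.

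Of the 5 ligand genes, Spp1 was the 1 that the cells transcribed above the filter. Spp1 (ENSMUSG00000029304, chr5:104435118-104441050, plus strand) encodes osteopontin, a secreted phosphoprotein of bone matrix and of activated macrophages. It measured 1821, 1768, 1616 and 1687 CPM in PBS replicates 1 to 4 and 1964, 1923, 1703 and 1718 CPM in rFSTL1 replicates 1 to 4. The groups overlapped, with rFSTL1 replicates 1 and 2 above all PBS libraries. The means (± SD, n = 4 each) were 1723 ± 90.1 CPM with PBS and 1827 ± 135 CPM with rFSTL1. The log2 fold change was 0.08 (SE 0.05, 95% interval -0.03 to 0.20, edgeR adjusted p = 0.444), and the exact permutation p was 0.257. Without rFSTL1 replicate 1 the log2 fold change was 0.04. The annotation also places Gm42793, a gene on the same strand that shares 309 bases (18.75% of Spp1's exon bases), within Spp1, and it was not among the rows of the count table.

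Set against its receptor subunit, Spp1 had 0.74, 0.694, 0.631 and 0.62 counts per Itga4 count under PBS and 0.845, 0.786, 0.839 and 0.912 under rFSTL1. These ratios did not overlap between the groups, as was the case for 27.5% of all tested genes set against Itga4, and the pair was chosen after its values were seen. Per kilobase, the ligand transcript stood at 4.35 ± 0.36 times the Itga4 level with PBS and 5.48 ± 0.33 times with rFSTL1 (SD, n = 4 each). With the median transcript length these values were 1.10 and 1.39.

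The transcripts of the other 4 ligands were at or near 0. Vcam1 (ENSMUSG00000027962, chr3:116109949-116129688, minus strand) had 0 of 139817281 counts in the 8 libraries, which allows up to 0.0215 CPM, or 0.00525 CPM per kilobase. By the longest transcript, the mean Spp1 level per kilobase was at least 223000-fold higher than this limit. That fold depends on the length used. Fn1 (ENSMUSG00000026193, chr1:71585520-71653200, minus strand) had 3 counts in PBS replicate 1, 9 in PBS replicate 2 and 0 in the other 6 libraries. Fibronectin binds VLA-4 and VLA-5 and is a major product of many tissue macrophages and fibroblasts. Thbs1 (ENSMUSG00000040152, chr2:118111876-118127133, plus strand), a matrix protein of platelets and macrophages, had 2 counts in PBS replicate 1 and 0 elsewhere. Madcam1 (ENSMUSG00000020310, chr10:79664559-79668537, plus strand) had 1 count in rFSTL1 replicate 4 and 0 elsewhere. At this depth no difference between the groups was detectable for these genes.

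The Fn1 and Thbs1 counts lay in the 2 libraries with the most fibroblast marker counts. The summed counts of 8 fibroblast markers were 32, 19, 4 and 0 in PBS replicates 1 to 4 and 1, 1, 2 and 2 in rFSTL1 replicates 1 to 4. Col1a2, Dcn, Postn and Lum had their counts in PBS replicates 1 or 2 alone, up to 8 in a library. Col1a1 and Col3a1 were highest there but had up to 1 count in an rFSTL1 library, Pdgfrb was highest in PBS replicate 3 with 4 counts, and Pdgfra was at 0 throughout. The part of such cells or their RNA in the Fn1 and Thbs1 counts was not tested.

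**Figure D4:**
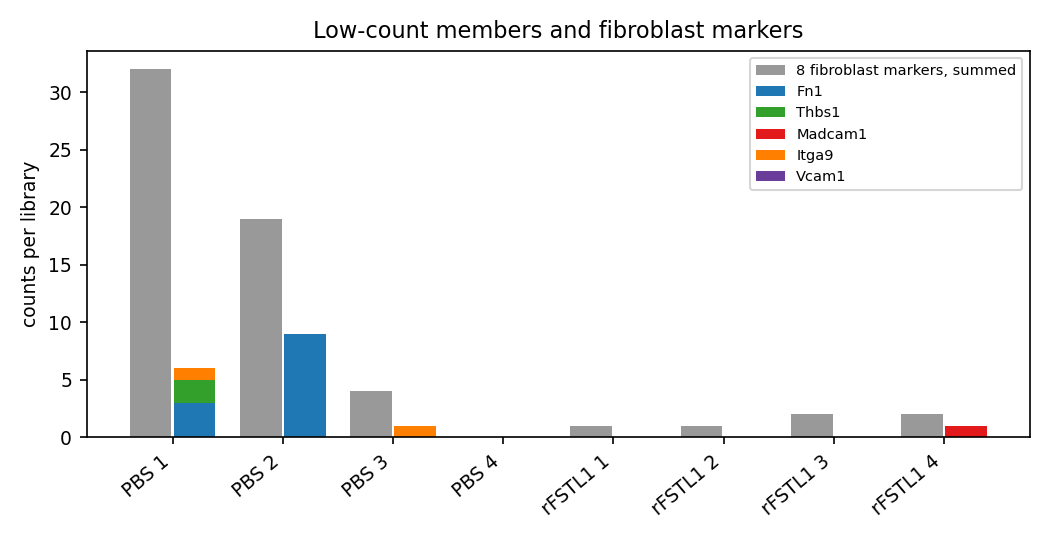
Counts in each library of the 5 genes that did not pass the filter (stacked) beside the summed counts of 8 fibroblast markers. The 12 Fn1 counts and the 2 Thbs1 counts lie in PBS replicates 1 and 2, where the fibroblast markers sum to 32 and 19.

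Other ligands of α4 and α9 were read from a list of 9 genes, of which 3 were tested. Vegfa, an angiogenic growth factor that also binds α9 β1, rose from 28.6 ± 3.66 to 41.9 ± 1.98 CPM (SD, n = 4 each), with a log2 fold change of 0.55 (SE 0.08, edgeR adjusted p = 0.00675). Its adjusted p stayed under 0.05 in all 15 alternatives, at 0.0395 or lower. Jam2, a junctional ligand of VLA-4, averaged 6.89 ± 1.09 CPM under PBS and 5.63 ± 1.16 CPM under rFSTL1 (SD, n = 4), a log2 fold change of -0.30 (SE 0.16, edgeR adjusted p = 0.366). Tgm2, a transglutaminase that binds integrins, was at 0.669 and 0.621 CPM with an edgeR adjusted p of 0.937. The median log2 fold change of the 3 tested genes was -0.07, beside 0.01 over all tested genes. Emilin1, a fibre protein of elastic tissue that binds α4 β1, had 1 to 5 counts per library under PBS and 5 to 17 under rFSTL1 and did not pass the filter. Tnc, Svep1 and Vegfc were at 0 in all 8 libraries.

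Of 22 other integrin subunits 11 were tested, with 7 positive and 4 negative log2 fold changes and a median of 0.02. By edgeR 0 of the 11 had an adjusted p under 0.05, beside 0.344% of all tested genes, and 0 an unadjusted p under 0.05, beside 15.9%. DESeq2 and limma voom also called 0 of them, among 197 and 454 genes that they called in all. With so few of all tested genes called by each tool, 0 calls among 11 does not set these genes apart. Itgb2 averaged 143 ± 3.64 CPM under PBS and 153 ± 10.6 CPM under rFSTL1 (SD, n = 4), with a log2 fold change of 0.09 (SE 0.05, edgeR adjusted p = 0.372). Itga5 had a log2 fold change of 0.09 (SE 0.06), Itgam 0.06 (SE 0.04) and Itgb5 -0.11 (SE 0.08). Itga3 and Itgad were at 0 in all 8 libraries.

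Osteopontin and the matrix ligands have receptors besides VLA-4, and 9 genes for these were listed and 7 tested. Sdc4, a heparan sulfate proteoglycan that acts with integrins on fibronectin, rose from 68.4 ± 3.04 to 81.0 ± 2.42 CPM (SD, n = 4 each), with a log2 fold change of 0.24 (SE 0.05, edgeR adjusted p = 0.0424). That call was lost without any 1 PBS library (edgeR adjusted p from 0.0817 to 0.261), without rFSTL1 replicate 2 (0.052) or 3 (0.135) and with the replicate block (0.0522), in which the log2 fold change was 0.21 to 0.27. Cd44, the hyaluronan receptor that also binds osteopontin, averaged 231 and 238 CPM (log2 fold change 0.04, SE 0.04, edgeR adjusted p = 0.672). The median of the 7 was 0.01. Itgb3, the β subunit of the αv β3 receptor of osteopontin, had 5 to 11 counts per library and was not tested.

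Integrin activation and signaling from the α4 tail were read from 14 genes, of which 12 were tested and 0 had an adjusted p under 0.05 (edgeR), with 1 unadjusted p under 0.05. The shares over all tested genes were 0.344% and 15.9%, so these counts do not set the list apart either. DESeq2 and limma voom called 0 of the list, among 197 and 454 genes that they called in all. Tln1, which encodes talin and switches integrins to the active form, had a log2 fold change of 0.10 (SE 0.05, edgeR adjusted p = 0.343). Ptk2b, the kinase PYK2 of leukocyte adhesion, had 0.10 (SE 0.05, edgeR adjusted p = 0.296). Rap1b, a small GTPase upstream of talin, had -0.10, and Arhgef7, the partner of the paxillin and GIT1 complex, 0.07. The median of the list was 0.05, and Fermt2 was at 0 in all libraries.

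**Figure D5:**
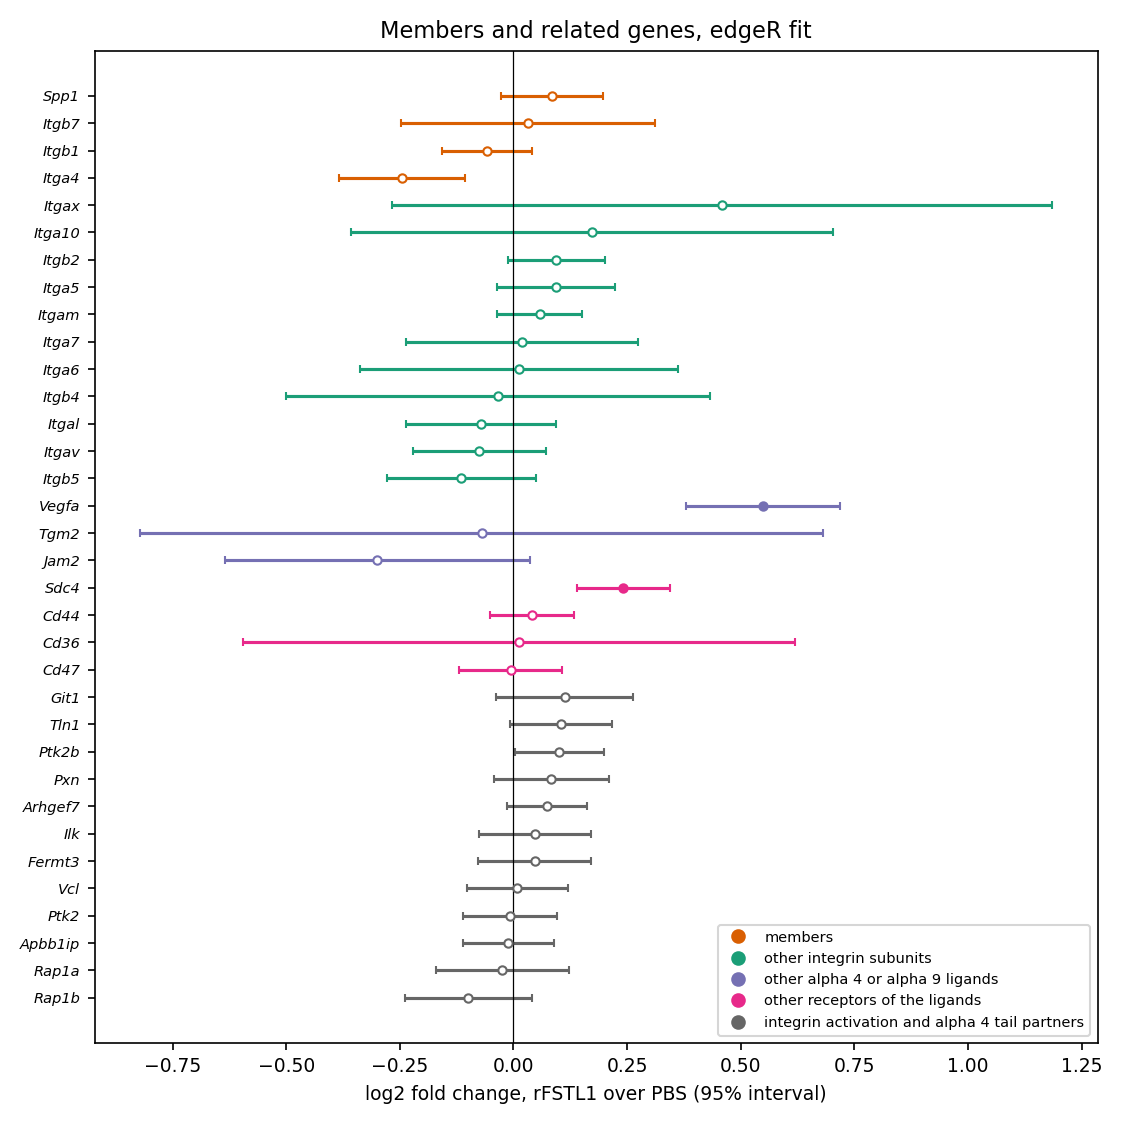
Log2 fold change (rFSTL1 over PBS) with its 95% interval from edgeR's fit for the 4 tested members and the tested genes of the 4 related lists, with filled points for an adjusted p under 0.05. Vegfa (0.55) and Sdc4 (0.24) are filled, and the interval of Itga4 (-0.38 to -0.11) lies below 0 with an open point.

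The tested genes outside the set whose log2(CPM + 1) followed Itga4 most closely over the 8 libraries were Plekha1 (Pearson r = 0.994), Lman1 (0.99), Tpr (0.99), Zfp748 (0.987) and Cul5 (0.987). Their log2 fold changes were -0.13, -0.06, -0.08, -0.17 and -0.14, with edgeR adjusted p-values from 0.225 to 0.5. Among the members, r with Itga4 was 0.896 for Itgb1, 0.01 for Spp1 and -0.25 for Itgb7. The 8 points share their libraries and the split into groups, and the values are given as a description.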

How the data were processed

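RNA-seq of RAW264.7 cells was analysed, with groups taken from the treatment label (PBS, n = 4 and rFSTL1, n = 4). The authors deposited expected counts (estimated read counts, without normalization) for 22013 genes, of which 13.0% of nonzero values were not whole. Their processing notes list HISAT2, Bowtie2 2.2.8, StringTie 1.3.1 and DESeq2. The annotation, build and strand setting were not given in the sources used here, and the library kit was not stated to mark strand. Coordinates and lengths came from GENCODE M21 (GRCm38) by Ensembl identifier. A symbol was missing in 112 rows.

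Counts were rounded, filtered with filterByExpr (minimum count 10) and compared with edgeR 4.0.16 (TMM, quasi-likelihood) in R 4.3.3, with Benjamini-Hochberg adjustment over 10748 genes and a threshold of 0.05. Ratios and single genes were compared by two-sided exact permutation over 70 assignments of the libraries. No 2 libraries of a group were as alike as sampling noise (chi-square per degree of freedom at least 3.02). The edgeR script was checked on simulated counts. Alternatives were DESeq2 1.42.0, limma 3.58.1 (voom with quality weights), other scalings, filters, lengths and pseudocounts, a replicate block, removal of the trend over length and GC by splines (4 degrees of freedom per library) and leaving out each library. The members and gene lists were chosen with earlier results of these data known. Genes named besides the members were, in the lists of other subunits, other ligands, other receptors and activation genes, those with an adjusted p under 0.05, the 3 smallest unadjusted p-values and the 2 highest levels per kilobase, and the 5 genes closest to Itga4. Cell type markers and genes at or near 0 are named outside this rule, chosen after their values were seen. Promoters came from RefSeq (GRCm38.p6).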

Additional observations from a re-analysis of the deposited data

How the results depend on the processing

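The count of changed genes, 37 of which 35 were higher, depended on the fit. DESeq2 gave 197 (136 higher, 61 lower), limma voom 454 (244 and 210), upper-quartile scaling 56, all genes with at least 1 count 155 (121 and 34), removal of the length and GC trend 74 (63 and 11) and a threshold of 0.1 gave 133. Leaving out 1 library gave 11 (without PBS replicate 2) to 99 (without rFSTL1 replicate 1). The number of members called, 0 as reported, was 1 (Itga4) by DESeq2, limma voom and the fit of all genes, and 0 to 1 when 1 library was left out (1 without rFSTL1 replicate 2). The Itga4 log2 fold change was then -0.2491, -0.2787 and -0.2451, and -0.3131 to -0.1823 with 1 library out. The Itga4 to Itgb1 log2 difference was -0.2275 to -0.1627 with 1 library out, that to Itgb1 plus Itgb7 -0.2347 to -0.1607, that to Itgb7 -0.4124 to -0.1075 and Itgb7 to Itgb1 -0.05518 to 0.185, where the smallest exact p is 0.0571. Alternatives chosen after seeing the data were PBS replicates 3 and 4 alone, with an Itga4 to Itgb1 difference of -0.2281 (exact permutation p = 0.133, the smallest possible), removal of the trend from the ratios, with -0.128 and, to both partners, -0.1266, and coding lengths (also used with the median lengths for the order of the members' levels), with an Itga4 to Itgb1 ratio per kilobase of 7.256 and a Spp1 level of 1947 CPM per kilobase under PBS. Median transcript lengths gave 7.334 and 1222. Itgb7 turned negative by limma voom (-0.01526), with the trend removed (-0.06432) and without PBS replicate 1 (-0.06184) or rFSTL1 replicate 4 (-0.08678, with 0.09662 the highest with 1 library out), and Itgb7 to Itgb1 without the same libraries (-0.001973 and -0.05518). The causes were not tested. The 15 alternatives each for Itgb1 and Spp1 kept their direction and made no call, but with 1 library out Itgb1 ran from -0.08948 (without rFSTL1 replicate 2) to -0.02275 (without rFSTL1 replicate 4) and Spp1 from 0.0427 (without rFSTL1 replicate 1) to 0.1168 (without rFSTL1 replicate 3). Itgb1 was -0.0874 without rFSTL1 replicate 1, Spp1 was 0.05266 without rFSTL1 replicate 2, 0.05508 without PBS replicate 3 and 0.05335 by limma voom, and with the trend removed Itgb1 was -0.02306. Same-numbered libraries did not deviate together (correlations -0.034 to 0.014, 0 of 8 libraries closest to their own number), and the fit with the replicate block called 41 genes, with -0.2511 for Itga4 (edgeR adjusted p = 0.124).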
